A study of Mus musculus with 18 samples.

Results

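The BCL2 family of neuronal death and survival was followed here through 10 genes of the 47643 genes counted in each library. They were given as a list of names, with earlier results of these data known, and matched to the counts through the Ensembl identifiers by GENCODE vM21. Proteins of this family act at the outer mitochondrial membrane. BH3-only proteins bind and block the prosurvival members or activate the pore formers, and the pore formers, once active, release cytochrome c, which starts the caspase cascade. In developing sensory neurons the family is known for deciding between survival and death when trophic support is lost. The list holds 5 BH3-only genes (Bbc3, Pmaip1, Hrk, Bcl2l11 and Bmf), 2 pore formers (Bax and Bak1) and 3 prosurvival genes (Bcl2, Bcl2l1 and Mcl1).

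RNA was sequenced from eDRG spot cultures, which are dorsal root ganglia of CD-1 mouse embryos at e13.5 dissociated and plated as a drop so that axons grow out from a central area of cell bodies. By the study's methods, every culture, controls included, was kept with the mitotic inhibitor FDU. There were 6 groups of 3 libraries, 18 libraries in all: uninjured control cultures collected at DIV7, and cultures whose axons had been cut with a blade and whose RNA was taken 1, 3, 8, 16 or 24 h post injury (HPI). Controls were collected at 1 time point only, so time after injury and time in the dish after the controls were taken cannot be told apart. The labels do not say that replicates were separate cultures. The p-values of the main fit measure the spread left between these libraries once the replicate number is fitted. In bulk RNA, fewer cells of a type and less RNA per cell cannot be told apart.

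Depth ranged from 9478891 to 23082327 counts on genes, with 8 HPI replicate 2 the shallowest, and a count of 3, taken as the limit of detection, corresponded to 0.130 to 0.316 CPM (counts scaled to the library's total on genes). These limits cover counting error only. The 8 sensory neuron markers summed to between 10402 and 12849 CPM in every library. The lists for satellite glia and Schwann cells (1.74 to 13.1 CPM), fibroblasts (1.21 to 19.5 CPM), endothelial cells (0.888 to 2.07 CPM), myeloid cells (3.56 to 7.60 CPM) and dividing cells (2.94 to 6.92 CPM) were low throughout, and of their 32 genes only Mag had at most 3 counts in all libraries. The myeloid sum was 3.56 to 5.78 CPM in control and 6.58 to 7.60 CPM at 24 HPI, and the sum for dividing cells was 3.08 to 4.20 and 4.41 to 6.92 CPM. Residual rRNA transcripts took between 0.994% and 2.14% of the counts on genes at 16 HPI and at most 1.02% in the other groups, with the highest share in 16 HPI replicate 1. Mitochondrial genes took between 14.9% (8 HPI replicate 3) and 24.1% (24 HPI replicate 1) of the counts on genes. CPM keeps them in the total. The part of these shifts in the results was not tested.

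After axotomy the BH3-only genes passed the test at different times. Bbc3 and Bcl2l11 had not passed the test at 1 and 3 HPI and rose by 8 HPI, with log2 fold changes of 0.98 ± 0.11 and 1.09 ± 0.19 (SE, 3 libraries a group). Bmf was higher at 16 HPI only, by 1.03 ± 0.22 on the log2 scale, and fell again by 24 HPI. Among the prosurvival genes, Bcl2 rose to 0.73 ± 0.11 at 16 HPI. Mcl1, Bax and Bak1 stayed within 0.22 of control on the log2 scale at every time point.

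The promoters of 4 genes that carried these changes are shown, since their transcripts moved at different times: Bbc3 and Bcl2l11 at 8 HPI, Bmf at 16 HPI, and the prosurvival gene Bcl2 at 16 HPI. Each window is 300 bases of GRCm38.p6 from RefSeq, 250 before and 50 after an annotated start, written 5′ to 3′ on the strand of the gene, and the capitals mark matches to the motifs searched. The Bbc3 window (chr7:16310011-16310310, plus strand) lies at an internal start within the gene. The Bcl2l11 window (chr2:128125788-128126087, plus strand) and the Bcl2 window (chr1:106714241-106714540, minus strand) reach into the first exon of each gene. The Bmf window (chr2:118544538-118544837, minus strand) lies at an internal start within the gene. Of the 3 windows each of Bbc3 and Bmf, the 1 with a forkhead or p53 match was picked to be shown, after the matches were seen, and of the 2 of Bcl2l11 likewise.
Bbc3: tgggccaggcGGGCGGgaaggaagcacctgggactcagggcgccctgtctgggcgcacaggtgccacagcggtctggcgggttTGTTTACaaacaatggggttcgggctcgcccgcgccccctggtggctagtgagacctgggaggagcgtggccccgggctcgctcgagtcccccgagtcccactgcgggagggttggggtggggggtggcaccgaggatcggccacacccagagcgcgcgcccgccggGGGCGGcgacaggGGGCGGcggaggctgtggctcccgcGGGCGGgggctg
Bcl2l11: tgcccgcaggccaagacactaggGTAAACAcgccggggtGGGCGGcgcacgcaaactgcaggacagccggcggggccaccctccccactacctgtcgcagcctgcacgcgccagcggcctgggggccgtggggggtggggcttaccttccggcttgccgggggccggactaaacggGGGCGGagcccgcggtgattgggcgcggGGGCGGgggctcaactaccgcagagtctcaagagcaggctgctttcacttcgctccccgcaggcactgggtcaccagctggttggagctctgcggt
Bmf: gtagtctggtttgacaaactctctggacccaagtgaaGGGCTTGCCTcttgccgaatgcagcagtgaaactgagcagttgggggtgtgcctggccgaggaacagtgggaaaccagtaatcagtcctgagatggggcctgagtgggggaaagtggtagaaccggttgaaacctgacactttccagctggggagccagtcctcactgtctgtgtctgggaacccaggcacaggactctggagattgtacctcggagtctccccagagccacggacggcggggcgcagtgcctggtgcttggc
Bcl2: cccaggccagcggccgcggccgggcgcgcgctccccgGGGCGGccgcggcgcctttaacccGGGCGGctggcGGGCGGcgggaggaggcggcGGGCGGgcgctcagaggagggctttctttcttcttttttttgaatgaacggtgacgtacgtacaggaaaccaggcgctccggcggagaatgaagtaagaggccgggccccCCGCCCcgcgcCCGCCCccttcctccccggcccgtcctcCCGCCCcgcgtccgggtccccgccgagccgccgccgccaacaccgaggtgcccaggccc

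The table of promoters held 16 windows of 9 of the 10 genes, and Pmaip1 was not among them. Searched on both strands, the forkhead letters TGTTTAC were in 1 window of Bbc3, at position -167 from the start, and in 1 window of Bcl2l11, at position -227, where they read on the opposite strand. They were in 3.65% of all 32851 windows of the table. A p53 half-site was in 1 window of Bmf, at position -213, and in the window of Bax, at position -201, and in 8.36% of all windows. The GC box letters GGGCGG occurred 4 times in the Bbc3 window shown, 3 times in that of Bcl2l11, 7 times in that of Bcl2 and not in that of Bmf, and they were in 35.7% of all windows. The other Bbc3 windows held 5 and 7, the other Bcl2l11 window 3, and the Bmf window at the start of the gene 1. The AP-1 letters TGANTCA (7.81% of all windows), the CRE letters TGACGTCA (1.79%) and the C/EBP-ATF letters TGATGCAA (0.895%) were in none of the 16. A match here is a run of letters and says nothing of a factor bound there. The GC content of the 4 windows shown was 74.7% for Bbc3, 71.0% for Bcl2l11, 58.7% for Bmf and 76.0% for Bcl2, beside a median of 52.7% over all windows.

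In uninjured cultures the family spanned a wide range of levels per exon length. Mcl1, a short-lived prosurvival protein, was highest with 30.2 ± 1.20 RPKM (SD, n = 3), followed by Bax with 20.3 ± 2.87 RPKM and Bcl2l1, which encodes BCL-XL, with 19.3 ± 0.556 RPKM. Bbc3 (14.5 ± 4.73 RPKM) and Hrk (11.9 ± 3.44 RPKM) were the only BH3-only genes in the same range, and Bak1 had 3.96 ± 0.482 RPKM. Bcl2 itself was scarce, with 0.658 ± 0.0719 RPKM, and Bcl2l11 (0.352 ± 0.110 RPKM), Bmf (0.194 ± 0.0537 RPKM) and Pmaip1 (0.145 ± 0.0811 RPKM) were scarcer. Neighbours in this order overlapped in their replicate ranges from Bax down to Hrk and from Bcl2l11 down to Pmaip1, so the order within those runs was not resolved. The length used decides the top of the order: over the longest annotated transcript in place of all exons, Bcl2l1 came first with 34.5 RPKM, ahead of Mcl1 with 30.2 and Bax with 29.0 RPKM.

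**Figure D1:**
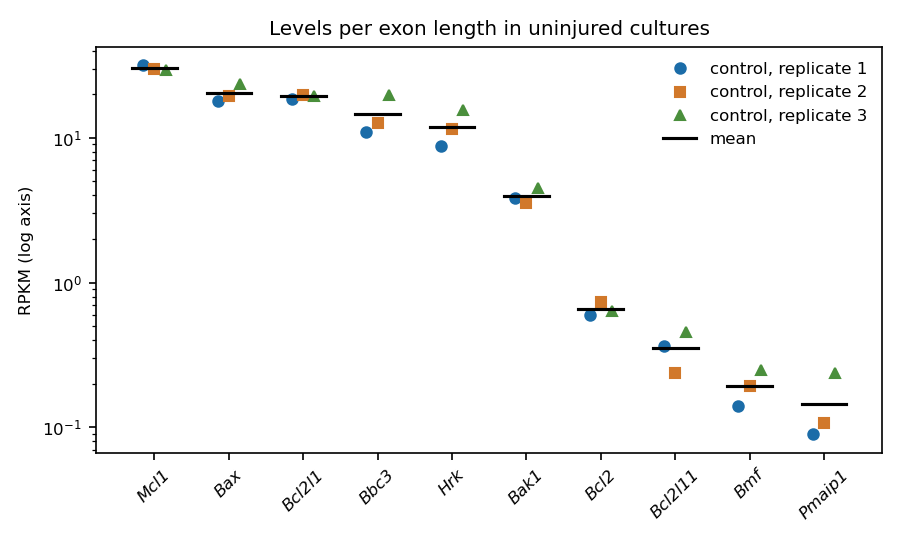
RPKM over total exon length (log axis) of the 10 genes in the 3 uninjured control libraries, ordered by mean, with 1 symbol per replicate and a line at the mean. Mcl1, Bax, Bcl2l1, Bbc3 and Hrk lie between 8.73 and 31.6 RPKM, and Bcl2, Bcl2l11, Bmf and Pmaip1 all lie under 1 RPKM.

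The question put to each gene was whether its transcript differed from control at each time after axotomy and whether it moved between successive times. The 13771 genes that exceeded 1 CPM in 3 or more libraries were fitted together by edgeR's quasi-likelihood test with the replicate number as a block and Benjamini-Hochberg adjustment, and a gene passed with an adjusted p under 0.05. Of the 10 genes 9 were tested, Pmaip1 being over 1 CPM in 2 libraries only. At 1 HPI 0 of 9 passed, against 0.276% of all genes (0.0290% with over 2-fold), and at 3 HPI 0 of 9 passed, against 0.189% (0.0290% with over 2-fold). At each of these times 2 of the 9, Bax and Bcl2l1, had an unadjusted p under 0.05, as did 1768 of all 13771 genes at 1 HPI and 1999 at 3 HPI. The DESeq2 Wald test passed 0 of the 9 at either time, and 135 and 153 of all genes. The log2 fold changes lay between -0.02 and 0.19 at 1 HPI, with Mcl1 lowest and Bmf highest, and between -0.15 and 0.21 at 3 HPI, with Bcl2l11 lowest and Bcl2l1 highest.

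From 8 HPI on, members passed against control in the upward direction only. At 8 HPI 4 of 9 were higher, against 3.78% of all genes, and 0 were lower, against 3.90%. At 16 HPI 6 of 9 were higher, against 10.7%, and 0 were lower, against 11.5%. At 24 HPI 5 of 9 were higher, against 5.99%, and 0 were lower, against 9.03%. The median log2 fold change of the 9 was 0.18, 0.24 and 0.21 at these 3 times, and that of all genes was 0.00. By the study's rule, which also asks for over 2-fold, Bcl2l11 passed at 8 HPI (0.537% of all genes) and Bmf at 16 HPI (1.49%), and 0 passed at 24 HPI (0.821%). Over the whole course 6 of 9 passed, Bbc3, Bcl2l11, Bmf, Hrk, Bcl2 and Bcl2l1, against 30.0% of all genes.

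These counts rest on the replicate block. Without the replicate block 0 of 9 passed at 8 HPI, 2 at 16 HPI (Bmf and Bcl2), 0 at 24 HPI and 3 over the whole course (Bbc3, Bcl2l11 and Bcl2). Of all 13771 genes, 61, 706, 153 and 535 passed in that fit, so the background fell with the members. All comparisons with control share the same 3 control libraries and are not independent of each other. The steps between successive times do not use the control libraries, but neighbouring steps share the libraries of the time between them. From 3 to 8 HPI, Bbc3 and Bcl2l11 rose, 2 of 9 against 1.74% of all genes, and 0 fell, against 0.559%. From 8 to 16 HPI, Bmf alone rose, 1 of 9 against 7.30%, and 0 fell, against 7.88%. From 16 to 24 HPI, 0 rose, against 3.59%, and Bbc3, Bcl2l11, Bmf and Bcl2 fell, 4 of 9 against 6.22%. Without the replicate block the counts were 1 (Bcl2l11), 0 and 0 of 9, and 44, 207 and 111 of all genes.

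**Figure D2:**
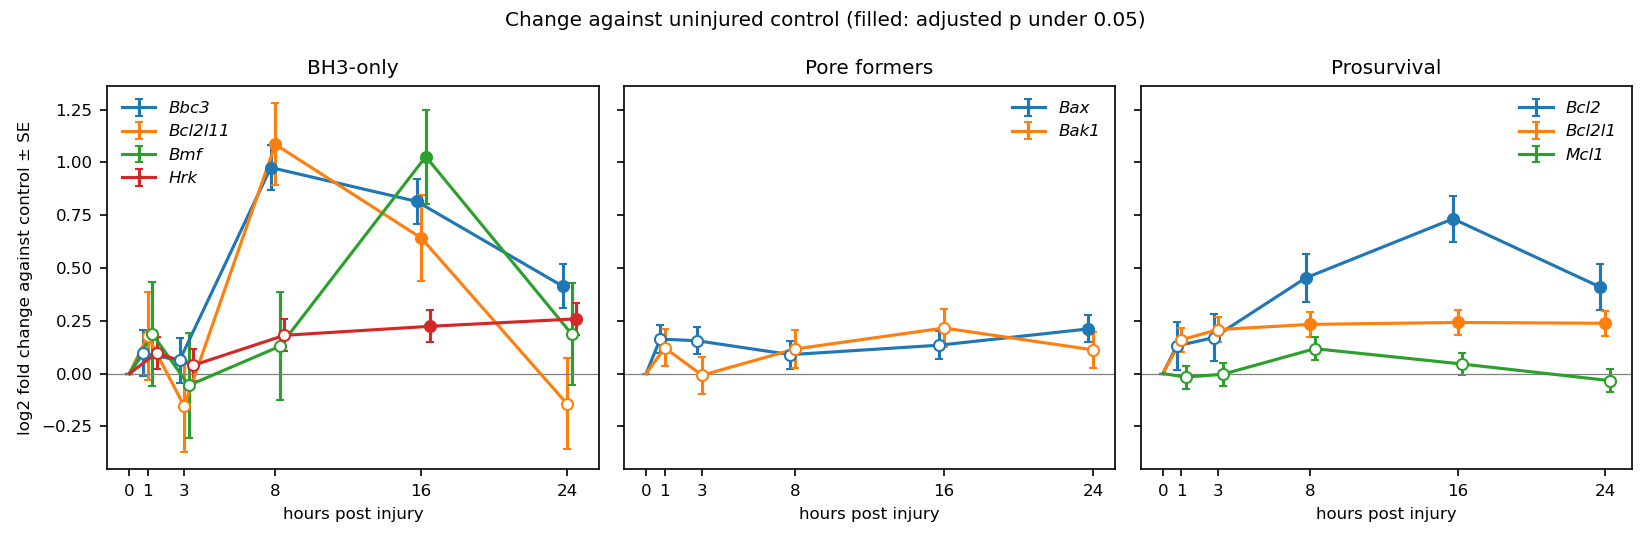
Log2 fold change against control (vertical axis, ± SE from the edgeR fit) over hours post injury for the 9 tested genes, by role, with filled symbols where the adjusted p was under 0.05 and with points of a time point set apart for legibility. Bbc3 and Bcl2l11 peak at 8 HPI at 0.98 and 1.09, Bmf and Bcl2 peak at 16 HPI at 1.03 and 0.73, and Mcl1 stays between -0.03 and 0.12.

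Bbc3 encodes PUMA, a BH3-only protein that binds all the main prosurvival members and is a known target of p53 (ENSMUSG00000002083.12, chr7:16308393-16318205 on GRCm38, plus strand). Its CPM in replicates 1, 2 and 3 was 23.2, 27.0 and 42.2 in control, 27.1, 29.0 and 43.0 at 1 HPI, and 26.3, 30.2 and 39.7 at 3 HPI. By 8 HPI it had reached 56.9, 55.0 and 64.7, then 43.8, 51.9 and 68.6 at 16 HPI and 27.1, 44.6 and 52.0 at 24 HPI. Every library at 8 and 16 HPI was above every control library, and replicate 3 was the highest of the 3 in every group. At 24 HPI only replicate 1 overlapped control, the library with the highest mitochondrial share (24.1%). The log2 fold change was 0.98 ± 0.11 at 8 HPI (adjusted p = 5.4e-06), 0.82 ± 0.11 at 16 HPI (adjusted p = 1.1e-05) and 0.41 ± 0.11 at 24 HPI (adjusted p = 0.0108). Within replicates 1, 2 and 3 taken singly, the log2 ratio at 8 HPI to control was 1.32, 1.01 and 0.62. Without the replicate block the adjusted p became 0.0977, 0.0509 and 0.488 in the same order.

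The Bbc3 change came between 3 and 8 HPI. Over that step it rose by 0.91 ± 0.10 on the log2 scale (adjusted p = 1.3e-05, and 0.168 without the replicate block), with ratios of 1.18, 0.86 and 0.68 in the 3 replicates. Between 8 and 16 HPI the difference was -0.16 ± 0.10 (adjusted p = 0.316), so the 2 times were not resolved. It fell by 0.40 from 16 to 24 HPI (SE 0.10, adjusted p = 0.0139), a call that was lost without 16 HPI replicate 1 (adjusted p = 0.0686) or 24 HPI replicate 1 (0.0991) and without the block (0.618). The higher level at 24 HPI also depended on single libraries. It was lost when replicate 1 or 2 of control or replicate 2 or 3 of 24 HPI was left out, with adjusted p between 0.0526 and 0.0805.

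Bcl2l11 encodes BIM, a BH3-only activator that can engage the pore formers directly (ENSMUSG00000027381.16, chr2:128126038-128162547, plus strand). Its CPM in replicates 1, 2 and 3 was 2.94, 1.89 and 3.65 in control, 3.45, 3.05 and 3.28 at 1 HPI, and 2.57, 2.17 and 3.08 at 3 HPI. It was 6.95, 4.96 and 6.17 at 8 HPI, then 5.78, 3.82 and 4.10 at 16 HPI, before 2.14, 3.20 and 2.40 at 24 HPI. All libraries at 8 and 16 HPI were above all control libraries, and at 24 HPI the values lay back among those of control. The log2 fold change was 1.09 ± 0.19 at 8 HPI (adjusted p = 0.00149, and 0.0745 without the replicate block), a 2.12-fold level, and 0.64 ± 0.20 at 16 HPI (adjusted p = 0.0251). At 24 HPI it was -0.14 ± 0.22 (adjusted p = 0.706).

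The Bcl2l11 step from 3 to 8 HPI was the largest of the 3 steps over the 9 genes, at 1.24 ± 0.20 on the log2 scale (adjusted p = 0.000615). It passed under all 15 alternatives, with an adjusted p of 0.0443 without the replicate block, and the ratio was 1.47, 1.15 and 0.95 in the 3 replicates. The difference between 8 and 16 HPI was -0.44 ± 0.18 (adjusted p = 0.109), and it passed only without 16 HPI replicate 1 (-0.67, adjusted p = 0.0352). From 16 to 24 HPI it fell by 0.79 (SE 0.20, adjusted p = 0.0151, and 0.173 without the block). Leaving out 16 HPI replicate 1, the library with the highest residual rRNA share, took away both the call at 16 HPI (0.42, adjusted p = 0.206) and that step (-0.57, adjusted p = 0.148). The call at 16 HPI was also lost without control replicate 1 (adjusted p = 0.0991), without control replicate 2 (0.111) or without the block (0.144), and the step without 24 HPI replicate 1 (0.0990) or 24 HPI replicate 3 (0.105).

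Bmf encodes a BH3-only protein that is held by motor and cytoskeletal complexes and freed by stress (ENSMUSG00000040093.15, chr2:118528757-118549687, minus strand). Its level was close to 1 CPM: 0.734, 1.02 and 1.30 in control, 1.31, 0.887 and 1.22 at 1 HPI, and 0.910, 0.823 and 1.16 at 3 HPI. By 8 HPI the values were 1.20, 0.738 and 1.26 CPM, followed by 2.08, 1.59 and 2.58 CPM at 16 HPI and 0.923, 1.11 and 1.36 CPM at 24 HPI. The 3 libraries of 16 HPI were the 3 highest of all 18. The log2 fold change at 16 HPI was 1.03 ± 0.22 (adjusted p = 0.00187), a 2.04-fold level, and it passed under all 14 alternatives that tested the gene, with an adjusted p of 0.0398 without the replicate block. Within the 3 replicates the log2 ratio was 1.45, 0.52 and 0.87. At 8 HPI it was 0.13 ± 0.26 (adjusted p = 0.830), and at 24 HPI 0.19 ± 0.24 (adjusted p = 0.663).

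Both sides of the Bmf peak passed the test, and both tests use the same 3 libraries of 16 HPI. It rose by 0.90 ± 0.23 from 8 to 16 HPI (adjusted p = 0.00981) and fell by 0.84 from 16 to 24 HPI (SE 0.21, adjusted p = 0.0140). The rise was lost without 8 HPI replicate 3 (adjusted p = 0.0682), by the DESeq2 Wald test (0.0634) and without the replicate block (0.125). The fall was lost when replicate 1 or 3 of either time was left out (adjusted p between 0.0506 and 0.0794), by the Wald test (0.0973) and without the block (0.184).

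Hrk encodes Harakiri, a BH3-only protein found mainly in neurons (ENSMUSG00000046607.6, chr5:118164648-118189478, plus strand). Its CPM was 49.6, 64.9 and 88.3 in control, 66.6, 76.8 and 82.4 at 8 HPI, 63.6, 81.5 and 94.0 at 16 HPI, and 61.3, 84.6 and 97.4 at 24 HPI. The groups overlapped throughout, and replicate 3 was highest and replicate 1 lowest in every group. The log2 fold change was 0.18 ± 0.08 at 8 HPI (adjusted p = 0.162), 0.22 ± 0.08 at 16 HPI (adjusted p = 0.0364) and 0.26 ± 0.07 at 24 HPI (adjusted p = 0.0220). Without the replicate block the adjusted p was 0.553 and 0.563 at the last 2 times. The call at 16 HPI was lost when any library was left out but control replicate 3 (adjusted p between 0.0672 and 0.238) and with the 2 groups alone (0.0618), and that at 24 HPI when replicate 1 or 2 of control or replicate 2 or 3 of 24 HPI was left out (0.0690 to 0.137). Without control replicate 3 the gene also passed at 8 HPI (0.31, adjusted p = 0.0241).

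Pmaip1 encodes NOXA, a BH3-only protein that binds MCL1 (ENSMUSG00000024521.7, chr18:66458533-66465565, plus strand). It was near the limit of detection, with 5, 4 and 13 counts in control, 8, 7 and 7 at 1 HPI, 6, 12 and 10 at 3 HPI, and 11, 0 and 7 at 8 HPI. The 0 was in the shallowest library, where it allows up to 0.316 CPM. At 16 HPI there were 13, 15 and 16 counts and at 24 HPI 15, 24 and 24, which is 0.844 to 0.937 and 0.866 to 1.16 CPM, against 0.245 to 0.649 CPM in control. All 6 libraries of these times were above all control libraries in CPM. Outside the main fit, with at least 10 counts over all libraries as the filter, the log2 fold change was 1.12 ± 0.42 at 16 HPI (adjusted p = 0.0783) and 1.40 ± 0.39 at 24 HPI (adjusted p = 0.0209). With the rRNA and mitochondrial genes left out, 16 HPI did not pass (adjusted p = 0.062) and 24 HPI did (0.0198). With no filter both passed (adjusted p = 0.0351 and 0.00277). That last fit called genes more freely: it passed 228 of all genes at 1 HPI and 354 at 3 HPI, against 38 and 26 in the main fit.

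**Figure D3:**
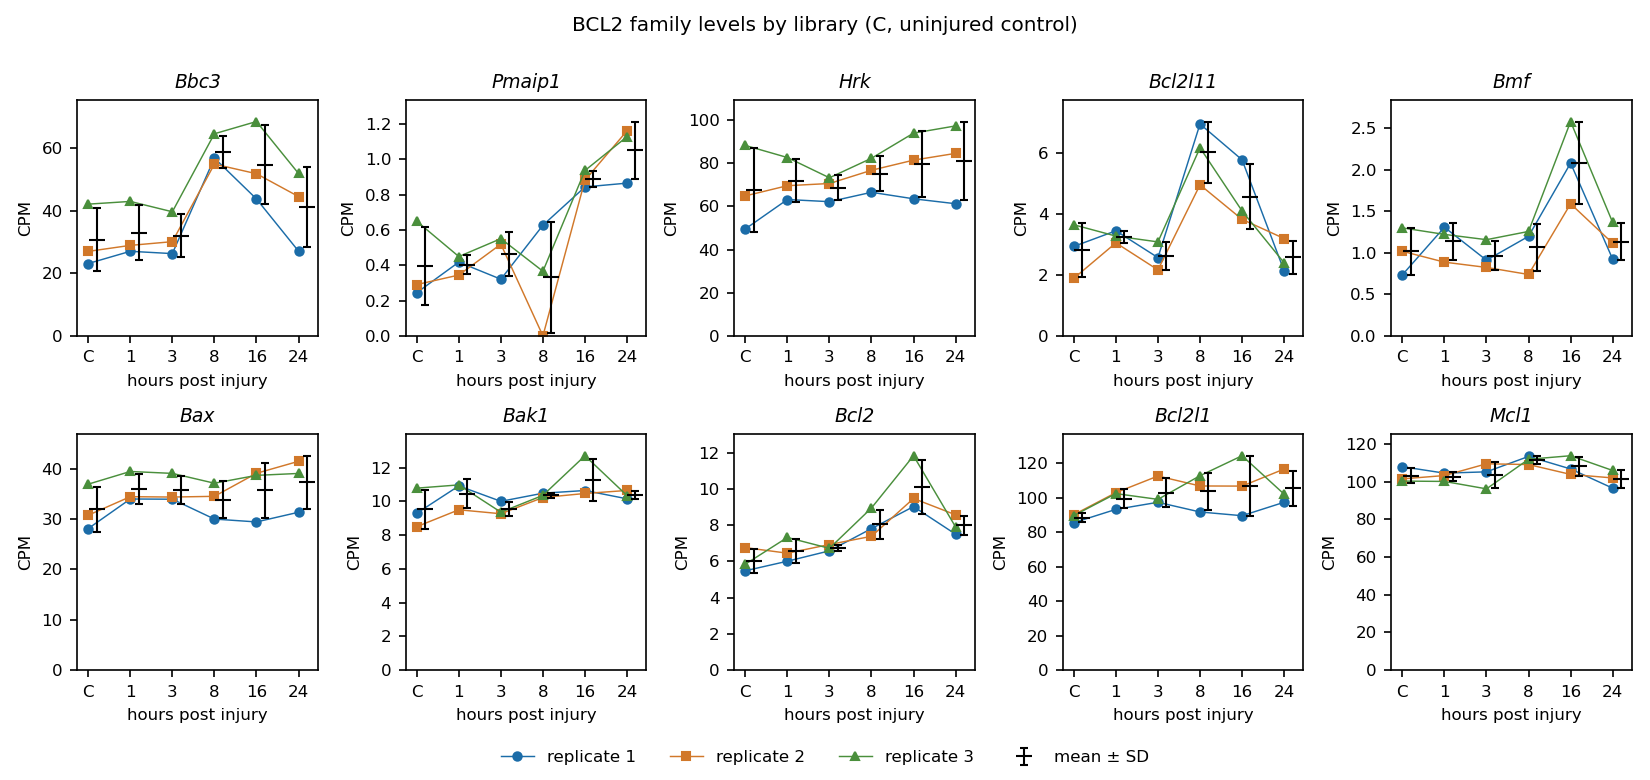
CPM of the 10 genes in the 18 libraries (vertical axes from 0, 1 panel per gene) by hours post injury, where C is the uninjured control, lines join libraries of the same replicate number and black marks are the mean ± SD of 3 libraries. Bbc3 and Bcl2l11 step up at 8 HPI in all 3 replicates, Bmf and Bcl2 are highest at 16 HPI, and Mcl1 stays between 96.2 and 114 CPM.

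The pore formers changed little. Bax (ENSMUSG00000003873.10, chr7:45461697-45466898, minus strand) had 28.1, 30.8 and 36.9 CPM in control and 31.3, 41.4 and 39.0 CPM at 24 HPI, with overlap between the groups and 29.4 to 39.4 CPM at the times between. It was higher at 24 HPI by 0.21 ± 0.06 on the log2 scale (adjusted p = 0.0287), a call lost with replicate 1 (adjusted p = 0.0885) or 2 (0.120) of control or replicate 2 of 24 HPI (0.166) left out, by the Wald test (0.0562) and without the replicate block (0.337). It did not pass over the whole course (adjusted p = 0.131). Its exons overlap those of Gm45808 on the same strand, so reads there could be split or left out by the counting.

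Bak1 (ENSMUSG00000057789.13, chr17:27019810-27029009, minus strand) had 9.30, 8.50 and 10.8 CPM in control and 10.6, 10.5 and 12.7 CPM at 16 HPI. Its largest log2 fold change was 0.22 ± 0.09, at 16 HPI (adjusted p = 0.0859), and it passed only without control replicate 3 (adjusted p = 0.0476). It overlaps Ggnbp1 on the opposite strand, which had between 10 and 36 counts against 97 to 220 for Bak1.

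Of the prosurvival genes, Bcl2, the founding member, moved most (ENSMUSG00000057329.7, chr1:106538178-106714274, minus strand). Its CPM in replicates 1, 2 and 3 was 5.48, 6.76 and 5.84 in control, 6.01, 6.45 and 7.32 at 1 HPI, and 6.58, 6.93 and 6.72 at 3 HPI. It was 7.81, 7.38 and 8.95 at 8 HPI, then 9.03, 9.47 and 11.8 at 16 HPI, before 7.50, 8.57 and 7.90 at 24 HPI. Every library from 8 HPI on was above every control library, and the 3 libraries of 16 HPI were the 3 highest of all. An antisense gene within Bcl2, D630008O14Rik, had at most 3 counts in any library.

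The log2 fold change of Bcl2 was 0.45 ± 0.11 at 8 HPI (adjusted p = 0.0166), 0.73 ± 0.11 at 16 HPI (adjusted p = 4.3e-05) and 0.41 ± 0.11 at 24 HPI (adjusted p = 0.0136). The rise at 16 HPI passed under all 15 alternatives, with an adjusted p of 0.00137 without the replicate block, and the ratio was 0.78, 0.40 and 0.94 in the 3 replicates. The call at 8 HPI was lost when replicate 1 or 3 of control or of 8 HPI was left out (adjusted p between 0.0641 and 0.124), by the Wald test (0.0503), with the 2 groups alone (0.0990) and without the block (0.118). That at 24 HPI was lost when replicate 1 or 3 of control or replicate 2 of 24 HPI was left out (0.0523 to 0.0966), by the Wald test (0.0506) and without the block (0.0879). From 16 to 24 HPI it fell by 0.32 (SE 0.10, adjusted p = 0.0462), and this passed under 4 of 15 alternatives only. The difference between 8 and 16 HPI was 0.28 ± 0.11 (adjusted p = 0.0784), and it passed with upper-quartile factors (0.0421) and without 16 HPI replicate 2 (0.0449).

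Bcl2l1 (ENSMUSG00000007659.18, chr2:152780668-152831728, minus strand), whose product BCL-XL protects mature neurons, differed from control by a like amount at 8, 16 and 24 HPI. It had 85.6, 90.2 and 89.7 CPM in control, 91.8, 107 and 113 CPM at 8 HPI, 89.6, 107 and 124 CPM at 16 HPI, and 97.4, 117 and 102 CPM at 24 HPI. The groups at 8 and 24 HPI did not overlap control, and that at 16 HPI did through its replicate 1. The libraries of 1 HPI (93.3, 103 and 102 CPM) and 3 HPI (97.4, 113 and 99.1 CPM) were also all above control. At 1 and 3 HPI the log2 fold change was 0.16 ± 0.06 and 0.21 ± 0.06, and neither passed (adjusted p = 0.262 and 0.11). The log2 fold change was 0.23 ± 0.06 at 8 HPI (adjusted p = 0.0188), 0.24 ± 0.06 at 16 HPI (adjusted p = 0.00466) and 0.24 ± 0.06 at 24 HPI (adjusted p = 0.00838). Without the replicate block none of the 3 passed (adjusted p = 0.305, 0.0857 and 0.162). At 8 HPI the call was also lost with replicate 2 (0.0794) or 3 (0.108) of control or replicate 3 of 8 HPI (0.129) left out and with the 2 groups alone (0.0553), and at 16 HPI without 16 HPI replicate 3 (0.0667), where the log2 fold change was 0.16.

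Mcl1 (ENSMUSG00000038612.16, chr3:95658788-95663176, plus strand) had between 96.2 and 113.8 CPM in all 18 libraries. Its CPM was 108, 101 and 100.3 in control and 113, 109 and 112 at 8 HPI. Its largest log2 fold change was that at 8 HPI, 0.12 ± 0.05 (adjusted p = 0.208), and it did not pass over the whole course (adjusted p = 0.204). All 3 libraries of 8 HPI lay above the control libraries.

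On the RPKM scale the BH3-only genes held a larger share of the family at 8 HPI than in control. They made up 26.3% ± 5.15 (SD, n = 3) of the summed RPKM of the 10 genes in control, 33.9% ± 1.01 at 8 HPI, 32.8% ± 2.38 at 16 HPI and 29.4% ± 4.62 at 24 HPI. In control this share ranged from 21.8% to 31.9% and at 8 HPI from 32.8% to 34.9%, without overlap. The prosurvival genes held 49.8% ± 5.75 in control and 45.3% ± 1.08 at 8 HPI, ranges that overlapped. The pore formers held 23.8% ± 0.614 and 20.8% ± 0.750. These lower shares do not mean lower RPKM. The mean summed RPKM of the 10 genes was 101 in control and 124 at 8 HPI. Mean RPKM was higher at 8 HPI for Mcl1 (30.2 to 32.6), Bcl2l1 (19.3 to 22.6) and Bcl2 (0.658 to 0.879). It was also higher for Bax (20.3 to 21.5) and Bak1 (3.96 to 4.30). Nearly all of the BH3-only share was Bbc3 and Hrk, which held 14.1% and 11.6% in control and 22.3% and 10.7% at 8 HPI, while Bcl2l11 held 0.345% and 0.608%. These shares are of RNA, over total exon length only, and no test was run on them.

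**Figure D4:**
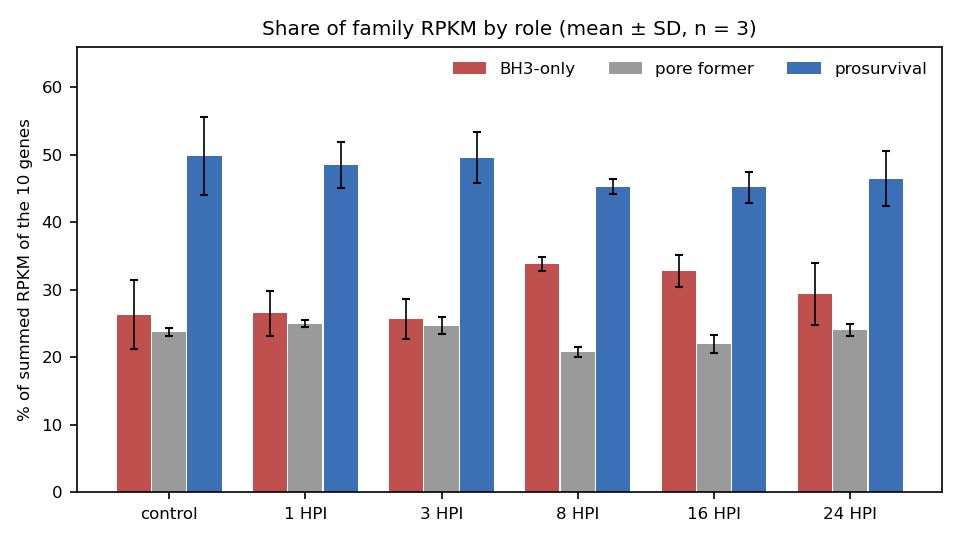
Share of the summed RPKM of the 10 genes held by the BH3-only, pore former and prosurvival genes (bars from 0, mean ± SD of 3 libraries) in control and at each time after injury. The BH3-only share is 26.3% in control and 33.9% at 8 HPI, and the prosurvival share is the largest in every group.

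The genes around the family were read from 7 lists of 60 genes in all, of which 46 were tested. At 1 and 3 HPI 0 passed. At 8 HPI 3 were higher and 2 lower, at 16 HPI 9 and 5, and at 24 HPI 7 and 3, where all genes had 3.78% and 3.90%, 10.7% and 11.5%, and 5.99% and 9.03%. The median log2 fold change of the 46 was 0.06, 0.01 and 0.03 at these times. Of 5 other BCL2 family genes tested, Bok, a pore former relative of Bax and Bak1, was higher at 16 HPI (0.38 ± 0.12, adjusted p = 0.0288) and 24 HPI (0.72 ± 0.12, adjusted p = 0.000234). Bid, Bad, Bcl2l2 and Bcl2l13 did not pass at any time.

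Downstream of the mitochondria, Apaf1, the scaffold of the apoptosome, was higher at 16 HPI (0.41 ± 0.09, adjusted p = 0.00156), as was Casp2 (0.50 ± 0.15, adjusted p = 0.0202), whereas Casp9, Casp6 and Cycs did not pass. Of 8 genes for inhibitors of apoptosis and mitochondrial death proteins, Birc6 was lower at 8, 16 and 24 HPI, by -0.29, -0.41 and -0.44. It already stood at -0.26 at both 1 and 3 HPI without passing (adjusted p = 0.074 and 0.0827). Htra2 was lower at 16 HPI (-0.31 ± 0.11, adjusted p = 0.0393) and Birc2 higher (0.20 ± 0.07, adjusted p = 0.0478). Huwe1, a ubiquitin ligase that marks MCL1 for degradation, was lower at 8, 16 and 24 HPI, by -0.26, -0.38 and -0.48. Its values at 1 and 3 HPI were -0.29 and -0.25, and neither passed (adjusted p = 0.0678 and 0.107). Usp9x, which removes ubiquitin from MCL1, was lower at 16 HPI (-0.17 ± 0.06, adjusted p = 0.0383).

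Among 6 tested transcription factors known to act on BH3-only genes, 2 were higher at 8 HPI, 4 at 16 HPI and 1 at 24 HPI, against 3.78%, 10.7% and 5.99% of all genes. Jun was higher by 1.03 ± 0.09 and 0.80 ± 0.09 at 8 and 16 HPI, and Ddit3, which encodes the stress factor CHOP, by 1.06 ± 0.11 and 1.11 ± 0.11. Trp53, which encodes p53, was higher at 16 HPI (0.40 ± 0.08, adjusted p = 0.001) and 24 HPI (0.26 ± 0.08, adjusted p = 0.0352). Foxo1 passed at 16 HPI only (0.99 ± 0.33, adjusted p = 0.0333). Its mean was 1.07 CPM there and at most 0.534 CPM in every other group, with at most 1.11 CPM in any library. It met the filter of 1 CPM only through the 16 HPI libraries, so the filter favoured its place among the 4. Foxo3 and E2f1 did not pass. In the list of death receptors Ngfr, the p75 receptor, was lower at 16 and 24 HPI (-0.36 and -0.37). Tnfrsf1a and Cflar were higher at 24 HPI (0.33 and 0.50, adjusted p = 0.0339 and 0.0235). At 24 HPI the mean marker sums for myeloid cells, glia, fibroblasts and dividing cells were also the highest of all groups. The sum for endothelial cells was highest in control. The part of these sums in the values was not tested. Of the 9 genes for MCL1 turnover and BH3-like mitophagy, Bnip3l and Bag1 were also higher at 24 HPI, by 0.20 and 0.19, and of 6 genes for outer membrane partners such as Vdac1, 0 passed.

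Likeness of pattern was described by Pearson's r of log2 CPM over the 18 libraries with the replicate effect removed. The libraries share their groups, so these values describe the courses and carry no p. Of the members, Bbc3 was most like Bcl2l11 (r = 0.83) and Bcl2 (0.77), and Bmf most like Bcl2 (0.75). The lowest values were between Bax and Bcl2l11 (-0.01) and between Bax and Mcl1 (-0.49). Over all tested genes, those nearest to Bbc3 were Btg2 (r = 0.96), Dusp1 (0.94) and Trim17 (0.94), and those nearest to Bcl2l11 were Stk40 (0.94), Nfil3 (0.93) and Elf1 (0.92). Bmf was nearest to Eps8 (0.95), Prkd3 (0.92) and Tmem132c (0.91), and Bcl2 to Dusp4 (0.95), Rhoq (0.95) and Slc30a4 (0.94). The nearest genes were less alike for Bcl2l1 (Ubl3, 0.86) and Hrk (Socs2, 0.84).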

How the data were processed

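The authors deposited counts of reads per gene for each library, without normalization. The study's methods give trimming, alignment with STAR to mm10 with GENCODE vM20 and counting with featureCounts, whereas the submitters' processing notes list HTSeq, so the counter is uncertain. Whether counting used strand is not given in the sources used here. Between 25.2% and 33.2% of counts were on 5 entries for no gene and were left out. No 2 libraries were identical. GENCODE vM21 matched 47224 of 47643 identifiers and gave exon lengths for RPKM.

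Counts were fitted with edgeR 4.0.16 in R 4.3.3 (TMM, time and replicate number as terms, all 18 libraries, two-sided), and 13771 genes passed the filter. SEs are the log2 fold change divided by the root of F. Ratios within replicates used log2 CPM with a prior count of 2. As deviations from their group means, libraries with the same number moved together (mean r = 0.637, lowest 0.476, over 45 pairs). For different numbers the mean r was -0.316 (90 pairs), which follows from centring each group on its mean and is no separate observation. The replicate number was the block in the main fit. The study's methods name a batch correction and do not say what the batch was. Alternatives were DESeq2 1.42.0, other size factors, other filters, no replicate block, ribosomal and mitochondrial genes left out, the 2 groups alone and each library left out. The fit was also run on simulated counts that held no replicate effect, so that run says nothing of the block, and no result here rests on it. The genes named are the 10 members, genes of the pathway lists that passed at any time and, per member, the 3 nearest in pattern. Genes of those lists that did not pass were named after their values were seen. The members and lists were chosen with earlier results of these data known. Some genes are counted with their list and not reported here by name.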

Additional observations from a re-analysis of the deposited data

Results flagged for a closer look

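Members differed between successive times after injury in 7 tests of the step itself (edgeR's quasi-likelihood test, Benjamini-Hochberg over 13771 genes). Neighbouring steps share the libraries of the time between them, so these tests are not independent. On the log2 scale, Bbc3 rose by 0.91 and Bcl2l11 by 1.24 from 3 to 8 HPI, and Bmf rose by 0.90 from 8 to 16 HPI. From 16 to 24 HPI the differences were -0.40 for Bbc3, -0.79 for Bcl2l11, -0.84 for Bmf and -0.32 for Bcl2. All 3 replicates moved in the direction given in each of these. With 3 libraries a group, no library was tested as standing apart from its group.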

How the results depend on the processing

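Of 22 member values that passed, 327 alternatives gave 250 on the same side of the threshold, 77 past it no longer and 0 with another sign. Bmf and Bcl2 at 16 HPI and the Bcl2l11 step from 3 to 8 HPI passed in every alternative run. Without the replicate block, members passing were 0 at 8 HPI, 2 at 16 HPI, 0 at 24 HPI, 3 over the whole course, and 1, 0 and 0 in the steps to 8, 16 and 24 HPI. The step to 16 HPI had 2 passing with upper-quartile factors or no filter (where Pmaip1 was tested), and 0 by the DESeq2 Wald test or over 1 CPM in all libraries (where Bmf was not tested). The Wald test passed 2 in the step to 24 HPI and 3 at 24 HPI. With the 2 groups alone 1 passed at 1 HPI (Bcl2l1) and 2 at 8 HPI, and with no filter 1 passed at 3 HPI (Bcl2l1). The fit with no filter passed 354 of all genes at 3 HPI, against 26 in the main fit. Leaving out 1 library gave 2 to 4 at 8 HPI (2 without 8 HPI replicate 3), 4 to 7 at 16 HPI, 1 to 5 at 24 HPI (1 without control replicate 1 or 24 HPI replicate 2, 2 without control replicate 2, 3 without 24 HPI replicate 3), 0 to 2 in the step to 16 HPI (0 without 8 HPI replicate 3, 2 without 16 HPI replicate 1 or 2) and 0 to 4 in the step to 24 HPI (0 without 16 HPI replicate 1 or 24 HPI replicate 1, 2 without 16 HPI replicate 3, 1 without 24 HPI replicate 3). Values that had not passed and changed sign were Bbc3 between 8 and 16 HPI (-0.30 to 0.0094), Bcl2l11 at 24 HPI (-0.43 to 0.0886), and Bmf at 8 HPI (-0.0921 to 0.24) and 24 HPI (-0.0199 to 0.31). The cause of these shifts was not tested, except that fewer libraries or genes entered. Low counts limit Pmaip1 and Bmf.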
